A study of Mus musculus with 6 samples.

Results

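The genes described here are 37 components of the mouse NOTCH pathway, chosen by symbol to cover receptors, ligands, glycosyltransferases, proteases, the nuclear complex, HES and HEY targets, and feedback genes and modulators, out of 55471 gene identifiers with read counts. All 37 were found, and 35 had enough reads to be tested among 15091 tested genes. RNA had been sequenced from mouse epiblast stem cells, pluripotent cells that resemble the epiblast at the start of gastrulation, after 2 days of differentiation in serum as embryoid bodies. The 3 Mixl1 induced libraries came from a line with inducible Mixl1, a homeobox gene of the primitive streak, to which doxycycline (1 µg/mL) was given over the last 24 h. The 3 Mixl1 KO libraries came from cells labelled as a knockout of that gene. Before differentiation all cells grew on a layer of irradiated fibroblasts from mouse embryos, in medium with 10 ng/mL bFGF and 20 ng/mL Activin A, and were then aggregated for 24 h in microwells. The labels do not say whether KO cells received doxycycline, which promoter drives the inducible Mixl1, what the KO allele is, whether each line is a single clone, or whether the lines share a parent. Line, Mixl1 and possibly the drug therefore cannot be told apart.

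NOTCH receptors are cleaved after they bind a ligand on a neighbouring cell, first by an ADAM protease outside the membrane and then by gamma-secretase within it. The freed intracellular domain enters the nucleus, joins the DNA-binding protein RBPJ and a Mastermind-like coactivator, and switches on targets such as the HES and HEY repressor genes. In the gastrulating embryo the pathway is known for the segmentation clock, in which Hes7 and Lfng oscillate in the presomitic mesoderm, for somite boundaries, and for holding neural progenitors back from becoming neurons through Hes1 and Hes5.

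The upstream windows of Hes7, Lfng and Hes5, well known NOTCH-responsive genes, are shown because each holds RBPJ-type letters while the transcripts differed in the comparison below, where Hes7 fell, Lfng rose and Hes5 had too few reads to be tested. Each line gives 200 bases, from 250 to 51 bases before the RefSeq start, on the plus strand of GRCm38.p6, with the motif GTGGGAA in capitals (TTCCCAC where it lies on the other strand). The Hes7 window is chr11:69120203-69120402, the Lfng window chr5:140607091-140607290 and the Hes5 window chr4:154960673-154960872.
Hes7: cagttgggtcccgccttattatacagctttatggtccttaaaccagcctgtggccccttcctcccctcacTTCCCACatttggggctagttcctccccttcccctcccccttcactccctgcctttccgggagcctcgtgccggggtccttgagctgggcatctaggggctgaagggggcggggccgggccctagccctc
Lfng: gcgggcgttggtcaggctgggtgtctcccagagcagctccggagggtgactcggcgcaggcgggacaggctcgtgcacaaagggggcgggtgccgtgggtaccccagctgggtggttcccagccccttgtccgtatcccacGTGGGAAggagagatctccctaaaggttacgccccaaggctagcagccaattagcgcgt
Hes5: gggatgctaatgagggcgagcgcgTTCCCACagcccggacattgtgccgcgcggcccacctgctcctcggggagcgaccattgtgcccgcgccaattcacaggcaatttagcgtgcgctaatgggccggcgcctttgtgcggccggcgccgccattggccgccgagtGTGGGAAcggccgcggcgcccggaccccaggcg

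Upstream windows from RefSeq were at hand for 29 of the 37 genes, with 36 windows. None was at hand for Hes1, Hes2, Hes3, Hey1, Heyl, Mfng, Dtx3 and Dtx4, so these genes were not searched for any motif. GTGGGAA, the core of the site that RBPJ binds, was searched on both strands. It was present in 4.35% of 32851 windows of this length over all genes, and in 5 of the 36 member windows (13.9%), those of Hes5, Hes7, Hey2, Lfng and Psen2. The Hes5 window held it at 226 to 220 and at 83 to 77 bases before the start. In Hes7 it lay 180 to 174 bases before the start and in Lfng 109 to 103. CACGNG, which HES proteins can bind, was found in 18.4% of all windows and in those of 12 members, Hes7 and Lfng included. In Lfng, a CACGTG copy at 112 to 107 overlaps GTGGGAA. The HES-type N box CACNAG was in 31.1% of all windows and in those of 14 members. The letters CTCGTG in Hes7 and Lfng count for both of these motifs. A match describes letters only, and binding was not measured.

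Each library held between 17490426 and 21026423 reads on genes. Mixl1 itself had 427, 441 and 429 CPM in induced libraries, against 39.9, 36.8 and 42.7 CPM in KO libraries (CPM, read counts per 1e6 reads on tested genes after TMM scaling). The KO libraries thus held 668 to 817 Mixl1 reads, and since the altered part of the gene is not given, a count over the whole gene is no check of the KO label. The 8 epiblast markers Pou5f1, Otx2, Fgf5, Nanog, Sox2, Utf1, Pou3f1 and Dnmt3b had reads in all libraries. Their sums were 1318 to 1354 CPM in induced and 1727 to 1858 CPM in KO libraries. Pou5f1 carried that difference, with 807 ± 21.7 CPM in induced and 1294 ± 44.5 CPM in KO libraries (SD, n = 3 each). All 8 passed the test, 5 higher and 3 lower, among them Sox2 at 3.63-fold higher and Nanog at 3.02-fold lower, and their part in the results below was not tested. Of 9 macrophage markers all 9 were lower in the induced group, where their sum was 46.8 to 58.6 CPM, against 319 to 460 CPM in the KO group. Among them Ptprc passed the filter on low counts only through the KO libraries, so its fall was a condition of its being tested. Feeder fibroblast markers summed to 422 to 588 CPM in induced and 596 to 755 CPM in KO libraries, with 3 of 9 higher and 5 lower. Col1a1 held the largest part of that difference, with 185 ± 34.4 CPM in induced and 310 ± 43.7 CPM in KO libraries. Pdgfrb came next, with 22.9 ± 4.61 CPM in induced and 111 ± 2.56 CPM in KO libraries (SD, n = 3 each). Col1a2 went the other way, with a log2 fold change of 1.09. None of these 18 genes was at 0 in any library, and their part in the results below was not tested. In bulk RNA, fewer cells of a type and less RNA per cell cannot be told apart. Nothing in the labels ties the replicates to separate cultures. The p-values therefore describe the spread among these libraries, which may be technical.

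In the induced libraries the ligand gene Jag1, the fringe genes Lfng and Mfng, the receptor gene Notch1, the coactivator gene Maml2, and Hey1 and Dtx4 were all more than 2-fold higher, while the HES genes Hes7, Hes3 and Hes6 and the target Heyl were more than 2-fold lower. Notch1 and Hes6 lie at the 2-fold line and did not pass a test against a 2-fold change (edgeR, adjusted p = 0.674 and 0.972). Of 35 tested members, 14 rose and 11 fell at an adjusted p of 0.05 (edgeR quasi-likelihood test with Benjamini-Hochberg adjustment over all tested genes, used throughout), beside 31.0% of all tested genes higher and 31.6% lower. These 25 are 71.4% of the members tested, beside 62.6% of all tested genes, so a call alone says little in this comparison. A call with at least a 2-fold change was made for 11 members, 31.4%, beside 16.1% of all genes. They were 7 higher and 4 lower members, beside 6.47% and 9.67% of all genes in those directions. Among the lower ones, Hes3 and Hes7 passed the filter on low counts only through the KO libraries. The members were also chosen with earlier results of these data known, so these shares are no test of the pathway. Induced and KO libraries were fully separate for 26 members, or 74.3%, beside 67.1% of all genes. The median size of the log2 fold change, whatever its sign, was 0.45 in the members and 0.32 over all tested genes, and the signed median was 0.07 against 0.00.

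**Figure D1:**
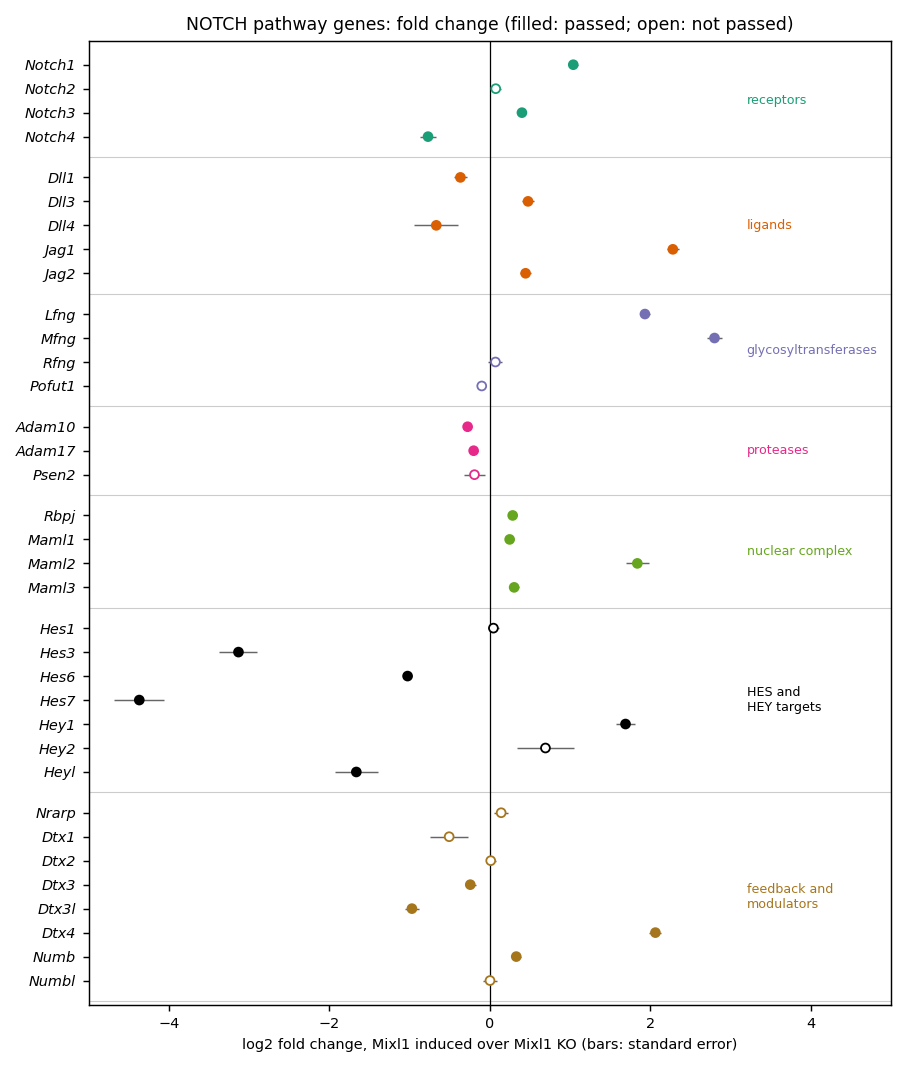
Log2 fold change (Mixl1 induced over Mixl1 KO, x axis) of the 35 tested NOTCH pathway genes, grouped by role. Bars are standard errors, filled points passed an adjusted p of 0.05 and open points did not. Mfng (2.80) and Jag1 (2.28) lie farthest right, and Hes7 (-4.37) and Hes3 (-3.13) farthest left.

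Counts by step of the pathway, here and below, cover few genes each and stand beside 31.0% of all tested genes higher and 31.6% lower. Of the 4 receptor genes, 2 rose, 1 fell and 1 did not pass. Notch1, on chromosome 2 (26457903 to 26516663, minus strand, GRCm38), had 196, 204 and 172 CPM in induced libraries, against 94.0, 93.2 and 90.6 CPM in KO libraries. Every induced library was above every KO library, with a log2 fold change of 1.04 (SE, standard error, 0.06; edgeR, adjusted p = 8.6e-13). Notch3, which in adults is best known from vascular smooth muscle, had 337, 319 and 285 CPM in induced libraries and 237, 246 and 232 CPM in KO libraries. The groups did not overlap here either, but the rise was 1.32-fold (edgeR, adjusted p = 1.56e-06).

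Notch2 had 101, 108 and 89.8 CPM in induced libraries, against 100.01, 95.2 and 89.2 CPM in KO libraries. The groups overlapped and the test was not passed (log2 fold change 0.07, SE 0.06; edgeR, adjusted p = 0.319). Notch4, a receptor best known from endothelium, had 9.45, 9.09 and 9.66 CPM in induced libraries, against 15.8, 15.6 and 16.7 CPM in KO libraries. All induced libraries were lower, by 0.77 on the log2 scale (SE 0.10; edgeR, adjusted p = 3.7e-07). Notch3 and Notch4, like the ligand gene Dll1, lie on chromosome 17, whose tested genes had a median log2 fold change of -0.13, and relative to that median they were at 0.53, -0.64 and -0.24 with the calls kept.

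Per kb of exon, Notch3 was the most abundant receptor transcript in both groups, with 38.8 ± 3.28 CPM per kb in the induced and 29.4 ± 0.893 CPM per kb in the KO group (SD, n = 3 each). Behind it the order per kb changed. In induced libraries Notch1 (12.1 to 14.3 CPM per kb) stood above Notch2 (8.33 to 10.1). In KO libraries Notch2 (8.27 to 9.28 CPM per kb) stood above Notch1 (6.37 to 6.61), and neither group had overlap. The KO order rests on the exon lengths used, 14232 bases for Notch1 and 10782 for Notch2. In CPM, Notch1 (90.6 to 94.0) and Notch2 (89.2 to 100.01) overlapped in KO libraries, while Notch1 stood above Notch2 in induced libraries. Notch1 made up 21.4% ± 0.617 of the summed receptor level in the induced group and 13.9% ± 0.170 in the KO group (SD, n = 3 each). Notch4 came last in both, at 1.17 ± 0.036 and 1.99 ± 0.075 CPM per kb in the induced and KO groups (SD, n = 3 each).

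**Figure D2:**
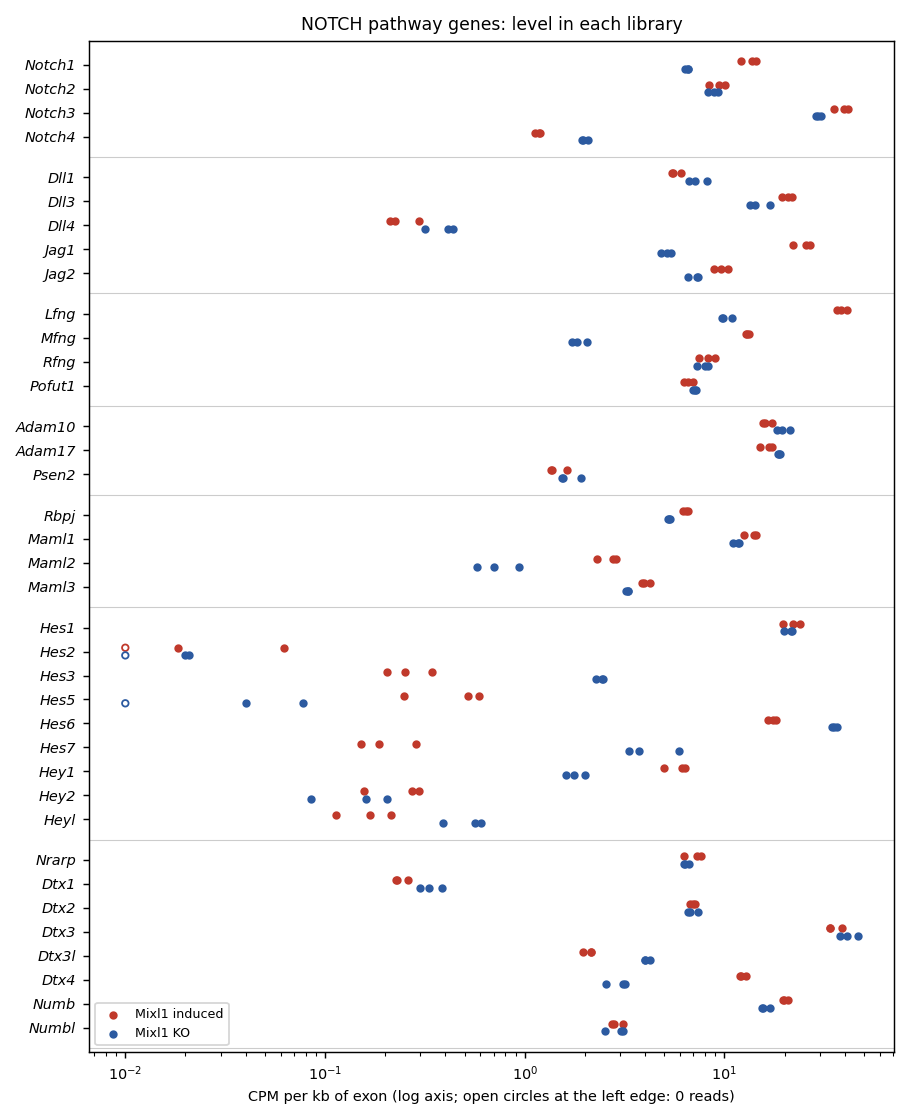
Level of each of the 37 NOTCH pathway genes in every library, in CPM per kb of exon on a log axis. Each point is a library, red for Mixl1 induced and blue for Mixl1 KO, and open circles at the left edge are libraries with 0 reads. Jag1, Lfng, Mfng and Dtx4 lie well to the right of their KO points, Hes3, Hes6 and Hes7 to the left, and the points of Hes1, Rfng, Dtx2 and Numbl overlap.

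All 5 ligand genes passed the test, 3 higher and 2 lower, beside 62.6% of all tested genes. Jag1, a Serrate-type ligand gene on chromosome 2 (137081456 to 137116644, minus strand), had 149, 157 and 128 CPM in induced libraries, against 28.0, 29.9 and 31.4 CPM in KO libraries. The groups were far apart, with a 4.86-fold rise (log2 fold change 2.28, SE 0.07; edgeR, adjusted p = 7.09e-15). The other Serrate-type gene, Jag2, had 73.0, 66.7 and 61.5 CPM in induced libraries, against 45.8, 51.5 and 50.7 CPM in KO libraries, a separate but smaller rise of 1.36-fold (edgeR, adjusted p = 4.39e-06).

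The 3 Delta-like genes went different ways. Dll3, whose product acts inside the sending cell and blocks rather than activates NOTCH, had 55.4, 59.2 and 62.1 CPM in induced libraries, against 38.2, 40.5 and 48.4 CPM in KO libraries. Dll1, the main activating ligand of presomitic mesoderm, had 23.0, 25.4 and 23.4 CPM in induced libraries, against 29.9, 28.2 and 34.5 CPM in KO libraries. Neither pair of groups overlapped, and the log2 fold changes were 0.48 for Dll3 and -0.37 for Dll1 (edgeR, adjusted p = 2.07e-05 and 0.000401). Dll4, the ligand of sprouting vessels, had few reads. It stood at 0.868, 1.14 and 0.819 CPM, or 15 to 20 reads, in induced libraries, against 1.22, 1.60 and 1.68 CPM, or 25 to 32 reads, in KO libraries. Its fall by 0.67 on the log2 scale passed narrowly (SE 0.27; edgeR, adjusted p = 0.0382), and was lost in DESeq2 (adjusted p = 0.129), with no filter on low counts (0.0646), and without KO replicate 2 (0.0965), KO replicate 3 (0.122), induced replicate 1 (0.110) or induced replicate 3 (0.113).

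The order of ligand transcripts per kb differed between the groups, with Jag1 first among induced and behind Dll3, Dll1 and Jag2 among KO libraries. In the induced group Jag1 led with 24.8 ± 2.59 CPM per kb of exon, followed by Dll3 with 20.7 ± 1.18, Jag2 with 9.63 ± 0.824 and Dll1 with 5.68 ± 0.306 (SD, n = 3). In the KO group Dll3 led with 14.9 ± 1.88 CPM per kb, Dll1 (7.31 ± 0.773) and Jag2 (7.09 ± 0.445) did not differ beyond their spread, and Jag1 followed with 5.11 ± 0.299 (SD, n = 3). Jag1 held 37.6% to 42.4% of the summed ligand level in induced libraries and 14.1% to 15.2% in KO libraries. Dll1 held 8.93% to 9.50% in induced and 19.7% to 22.0% in KO libraries. Notch4 and Dll4 are endothelial genes in the embryo; of 9 endothelial markers 6 were tested, 4 were higher and 2 lower, and their sum was 64.2 to 73.5 CPM in induced and 31.5 to 33.7 CPM in KO libraries. Kdr held most of that difference, and without it the sums were 28.1 to 35.1 CPM in induced and 29.2 to 30.8 CPM in KO libraries. Emcn was at 0 in every induced library and had reads in 1 KO library, and the part of endothelial cells in these values was not tested.

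**Figure D3:**
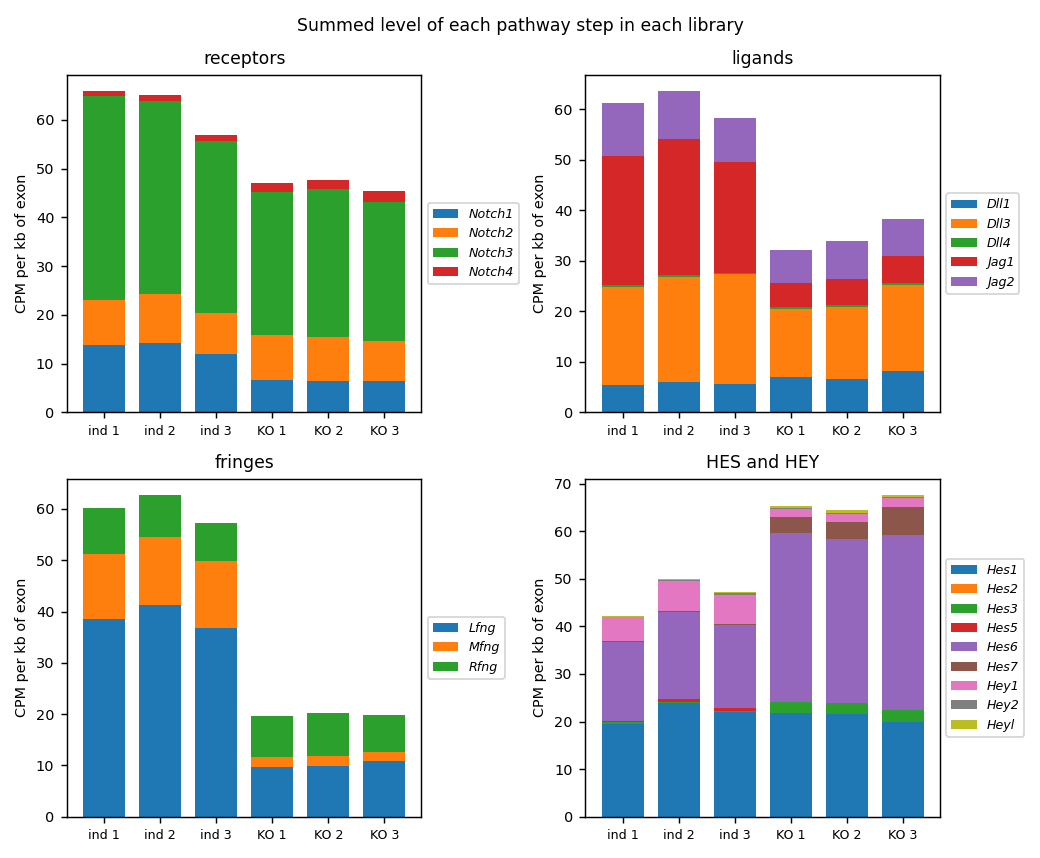
Summed level, in CPM per kb of exon, of the receptors, ligands, fringe enzymes and HES and HEY genes in each library, stacked by gene. Induced libraries 1 to 3 stand left and KO libraries 1 to 3 right. The fringe bars reach 57.2 to 62.7 in induced and 19.6 to 20.2 in KO libraries, and the HES and HEY bars 42.2 to 49.98 in induced and 64.4 to 67.6 in KO libraries.

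Among glycosyltransferase genes, 2 of 4 rose and none fell. Fringe enzymes add a sugar to the O-fucose that POFUT1 puts on NOTCH and so change which ligands the receptor answers to. Mfng, on chromosome 15 (78755882 to 78773475, minus strand), had 36.3, 37.5 and 37.0 CPM in induced libraries, against 5.17, 5.84 and 4.90 CPM in KO libraries. Lfng, on chromosome 5 (140607320 to 140615545, plus strand), had 96.3, 103 and 92.1 CPM in induced libraries, against 24.5, 24.6 and 27.3 CPM in KO libraries. The groups lay far apart for each gene, with log2 fold changes of 2.80 (SE 0.09) for Mfng and 1.93 (SE 0.06) for Lfng (edgeR, adjusted p = 4.33e-17 and 4.56e-17). Mfng rose on a chromosome whose median log2 fold change was -0.33.

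Rfng, the remaining fringe gene, had 18.5 to 22.3 CPM in induced and 18.1 to 20.6 CPM in KO libraries and did not pass (edgeR, adjusted p = 0.502). Pofut1, which makes the O-fucose, had 62.4 to 68.8 CPM in induced and 69.2 to 71.2 CPM in KO libraries and did not pass either (edgeR, adjusted p = 0.105). The mix of fringe transcripts thus differed. Rfng made up 13.7% ± 1.03 of the summed fringe level per kb in induced libraries and 39.5% ± 2.51 in KO libraries (SD, n = 3 each), while Mfng made up 21.1% to 22.8% in induced and 8.67% to 10.2% in KO libraries. Lfng was the largest part in all 6 libraries.

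Of 3 protease genes, 2 fell slightly and 1 did not pass. Adam10, which makes the first cut in ligand-bound NOTCH, averaged 79.7 ± 4.41 CPM in induced and 96.6 ± 7.25 CPM in KO libraries, and Adam17, a related sheddase gene, 117 ± 8.28 CPM in induced and 134 ± 1.54 CPM in KO libraries (SD, n = 3 each). Both fell, by 0.28 and 0.20 on the log2 scale (edgeR, adjusted p = 0.000277 and 0.00166), without overlap between groups. Adam17 shares 311 exon bases with Iah1 on the opposite strand, and the counts used separate the strands. Psen2, a catalytic subunit gene of gamma-secretase, had 5.89 to 7.04 CPM in induced and 6.68 to 8.27 CPM in KO libraries and did not pass (edgeR, adjusted p = 0.222).

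All 4 genes of the nuclear complex rose, beside 31.0% of all tested genes. Rbpj, the DNA-binding partner of the NOTCH intracellular domain, averaged 81.7 ± 2.59 CPM in induced and 67.1 ± 0.859 CPM in KO libraries (SD, n = 3 each), a 1.22-fold difference. Maml1 and Maml3, coactivator genes, rose 1.19-fold and 1.23-fold. These 3 shifts were small, with no overlap between groups (edgeR, adjusted p = 4.41e-05 for Rbpj, 0.00084 for Maml1 and 0.000211 for Maml3). Maml2 moved farther, with 18.8, 15.3 and 18.2 CPM in induced libraries, against 6.15, 4.63 and 3.79 CPM in KO libraries. The groups were well separated (log2 fold change 1.84, SE 0.14; edgeR, adjusted p = 6.19e-10), although Maml1 kept the largest level per kb of the 3 coactivator genes, 13.7 ± 0.994 CPM per kb in induced and 11.5 ± 0.420 in KO libraries (SD, n = 3 each).

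Of the 9 HES and HEY genes, 7 were tested, and 1 rose, 4 fell and 2 did not pass. All 4 falls were at least 2-fold, as were falls of 9.67% of all tested genes. Hes7, the clock repressor gene of presomitic mesoderm, on chromosome 11 (69120404 to 69124055, plus strand), had 0.337, 0.514 and 0.273 CPM in induced libraries, against 6.0, 6.72 and 10.7 CPM in KO libraries. In reads, that is 7, 9 and 5 in induced and 123, 122 and 204 in KO libraries. No induced library came near the lowest KO library, and KO replicate 3 stood above the other KO libraries. The log2 fold change was -4.37 (SE 0.31; edgeR, adjusted p = 1.54e-09).

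Hes3, a HES gene of early neuroepithelium, had 0.675, 0.40 and 0.491 CPM in induced libraries, against 4.83, 4.46 and 4.79 CPM in KO libraries. No libraries overlapped, and it fell by 3.13 on the log2 scale (SE 0.24; edgeR, adjusted p = 1.37e-10). Both Hes7 and Hes3 were at least 8-fold lower, as were 1.48% of all tested genes. Hes3 and Hes7 passed the filter on low counts only through the KO libraries, so a difference was a condition of their being tested. Hes6, a family member that counteracts HES1 and favours neuronal differentiation, had 30.0, 32.9 and 31.8 CPM in induced libraries, against 64.1, 62.2 and 66.2 CPM in KO libraries. Each induced library was well under each KO library (log2 fold change -1.03, SE 0.06; edgeR, adjusted p = 1.43e-12).

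Hey1 was the HES or HEY gene that rose. It had 16.2, 20.7 and 19.9 CPM in induced libraries, against 5.76, 5.24 and 6.53 CPM in KO libraries, a clear separation of 3.23-fold (log2 fold change 1.69, SE 0.12; edgeR, adjusted p = 3.98e-11). Heyl, a relative of Hey1, had 0.579, 0.857 and 1.09 CPM in induced libraries, against 2.88, 3.09 and 2.00 CPM in KO libraries. Its levels were low but did not overlap, and it fell by 1.66 on the log2 scale (SE 0.27; edgeR, adjusted p = 1.39e-05). The third HEY gene, Hey2, had 15 to 25 reads in induced and 8 to 17 in KO libraries, overlapped, and did not pass (log2 fold change 0.69, SE 0.35; edgeR, adjusted p = 0.091), although it did without induced replicate 1 (0.0321) or KO replicate 2 (0.0430).

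Hes1, the HES gene most widely switched on by NOTCH, had 39.8, 48.8 and 44.7 CPM in induced libraries, against 44.3, 44.0 and 40.7 CPM in KO libraries. The groups overlapped and it did not pass (log2 fold change 0.04, SE 0.07; edgeR, adjusted p = 0.6). Hes5, the HES gene of neural progenitors, was not tested with the filter on low counts. It had 7, 14 and 13 reads in induced libraries, against 0, 1 and 2 reads in KO libraries, a ratio of 11.6 (95% counting interval 3.63 to 58.8, exact binomial). Hes2 had 4 reads over the induced group and 2 over the KO group, too few for a comparison.

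The leading HES transcript differed between the groups. Per kb of exon, Hes1 led in the induced group with 21.8 ± 2.21 CPM per kb, ahead of Hes6 with 17.5 ± 0.804 (SD, n = 3), and the lowest Hes1 library stood above the highest Hes6 library. In the KO group Hes6 led with 35.5 ± 1.12 CPM per kb, ahead of Hes1 with 21.1 ± 0.981 (SD, n = 3). Hey1 came next in the induced group with 5.80 ± 0.736 CPM per kb, against 1.79 ± 0.199 in the KO group, where Hes7 (4.32 ± 1.41) and Hes3 (2.40 ± 0.102) stood above it (SD, n = 3 each). The summed HES and HEY level was 46.4 ± 3.96 CPM per kb in the induced and 65.8 ± 1.64 in the KO group (SD, n = 3 each). Most of that gap was Hes6. Without Hes6 the sums were 29.0 ± 3.15 CPM per kb in the induced and 30.3 ± 0.583 in the KO group (SD, n = 3 each) and overlapped. The receptor, ligand and fringe sums were higher in every induced library than in any KO library.

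**Figure D4:**
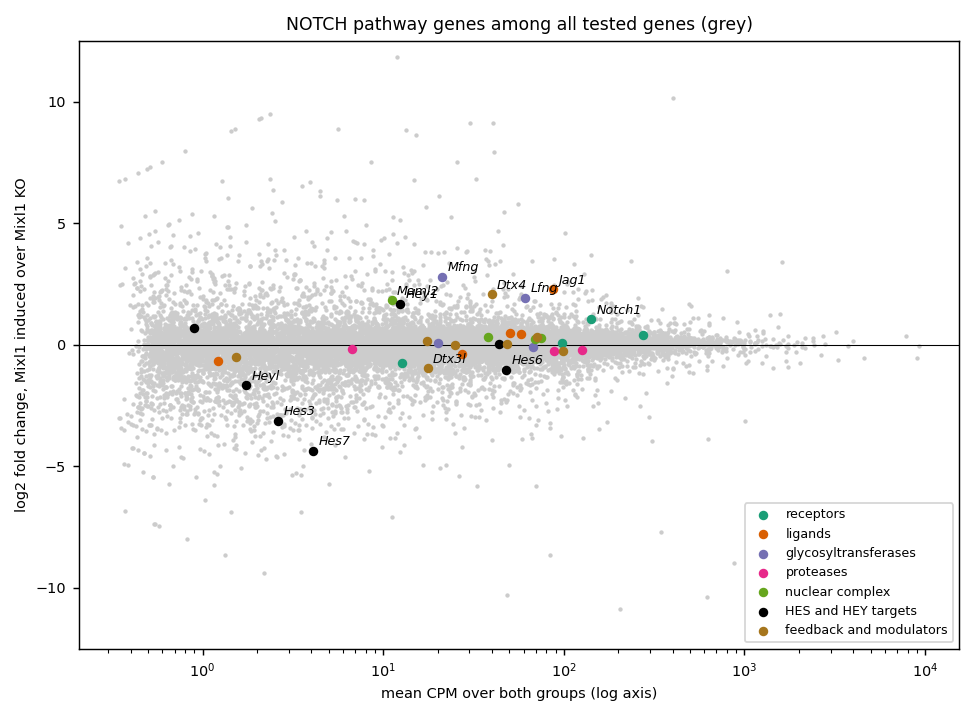
Log2 fold change (Mixl1 induced over Mixl1 KO) against mean CPM over both groups (log axis) for all 15091 tested genes in grey and the 35 tested NOTCH pathway genes coloured by role. Members with larger changes are named. Jag1, Lfng and Notch1 changed at high levels, and Hes7, Hes3 and Heyl at low levels.

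Feedback genes and modulators were mixed, with 2 of 8 higher, 2 lower and 4 that did not pass. Dtx4, one of the Deltex ubiquitin ligase genes, on chromosome 19 (12466338 to 12501454, minus strand), had 63.2, 62.6 and 66.9 CPM in induced libraries, against 16.2, 16.5 and 13.3 CPM in KO libraries. The groups were far apart, at 4.18-fold (log2 fold change 2.06, SE 0.07; edgeR, adjusted p = 3.16e-16). Dtx3l, a Deltex gene that pairs with Parp9, had 11.2, 12.2 and 12.3 CPM in induced libraries, against 24.2, 22.8 and 22.8 CPM in KO libraries. The groups did not overlap, and Dtx3l fell by 0.97 on the log2 scale (SE 0.09; edgeR, adjusted p = 1.68e-09), and its neighbours Parp14 and Parp9 were at -1.78 and -1.03. Dtx3l and Parp9 share 458 exon bases on opposite strands. All 9 macrophage markers were lower too, and their part in the fall of Dtx3l was not tested.

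Dtx3 fell slightly, with 90.9 ± 7.24 CPM in induced and 108 ± 11.2 CPM in KO libraries that overlapped (SD, n = 3 each; edgeR, adjusted p = 0.00754). Dtx2 (log2 fold change 0.01) and Dtx1 (-0.51) did not pass; Dtx1 had only 22 to 25 reads in induced and 30 to 37 in KO libraries, and 16.7% of the stranded reads at the gene lay on the opposite strand. Nrarp, a direct NOTCH target that limits the signal, had 16.3, 19.7 and 18.8 CPM in induced libraries, against 16.1, 16.4 and 17.1 CPM in KO libraries. It overlapped and did not pass (log2 fold change 0.14, SE 0.09; edgeR, adjusted p = 0.177). Numb, which inhibits NOTCH in the daughter cell that inherits it, rose 1.26-fold (edgeR, adjusted p = 1.69e-05), with 76.8 to 81.4 CPM in induced and 60.2 to 66.3 CPM in KO libraries. Its relative Numbl averaged 25.02 ± 1.76 CPM in induced and 25.02 ± 2.72 CPM in KO libraries (SD, n = 3 each) and did not pass (edgeR, adjusted p = 0.988).

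Genes next to the members moved as well in places. Of the 11 members called at 2-fold or more, Mfng was the 1 with an adjacent tested gene that was at least 2-fold changed in the same direction, Elfn2 at 1.15. Of the 14 members called at less than 2-fold, 5 had an adjacent gene with a change at least as large in the same direction, namely Dll1, Jag2, Adam10, Adam17 and Dtx3l. The genes directly beside Notch4 were close to its own -0.77, with BC051142 at -0.69 and Gpsm3 at -0.67. The 6 genes nearest to Notch4, however, had a median of 0.38. All 6 genes nearest to Hes6 passed the test, with a median of -0.42.

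Other genes of the pathway and its surroundings were taken from lists of textbook members. Of 51 genes of the core machinery outside the 37, all 51 were tested, and 17 rose and 15 fell, a share of 62.7% called beside 62.6% of all tested genes. Their median log2 fold change was 0.03. The counts for single lists, here and below, cover few genes each and stand beside 31.0% of all tested genes higher and 31.6% lower. Of 8 genes of receptor glycosylation and maturation 6 rose and none fell, a share of 75% called, with a median of 0.41. Gxylt2, which extends O-glucose with xylose, averaged 37.6 ± 3.57 CPM in induced and 12.7 ± 1.66 CPM in KO libraries (SD, n = 3 each). Poglut2 (Kdelc1 in the annotation used), Eogt and Xxylt1 rose as well, by log2 fold changes of 0.64, 0.52 and 0.50, and Poglut3 (-0.08) and Furin (0.07) did not pass.

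Gamma-secretase genes were higher in 5 of 6 cases, 4 of them by little, beside 31.0% of all tested genes higher. Aph1b, a scaffold subunit gene, averaged 17.95 ± 0.584 CPM in induced and 3.70 ± 0.571 CPM in KO libraries (SD, n = 3 each; log2 fold change 2.28, SE 0.12; edgeR, adjusted p = 2.46e-13). Its near copy Aph1c did not pass (-0.42), and reads that fit both copies were left out of the counts, so the split between the copies is uncertain. Psenen and Aph1a rose by log2 fold changes of 0.26 and 0.22.

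Ligand endocytosis genes were lower in 3 of 7 cases and higher in none. The share called was 42.9%, under the 62.6% of all tested genes, of which 31.6% were lower. Neurl1a, a Neuralized ubiquitin ligase gene that helps ligands into the sending cell, averaged 20.6 ± 0.910 CPM in induced and 67.3 ± 2.32 CPM in KO libraries (SD, n = 3 each; log2 fold change -1.71, SE 0.06; edgeR, adjusted p = 4.39e-16). Neurl1b and Mib1 fell by 0.75 and 0.13 on the log2 scale. Mib1 lies on chromosome 18, whose tested genes had a median log2 fold change of -0.16, so its fall was smaller than that median. Mib2 (-0.16), Epn1 (0.07), Epn2 (0.00) and Dnm2 (-0.05) did not pass. Of 6 non-canonical ligand genes, 3 fell and none rose, a share of 50% called, also under that of all tested genes. Dner was at -1.88, Ccn3 at -1.47 and Dlk2 at -0.77, while Dlk1 (-0.05), Cntn1 (0.11) and Egfl7 (0.00) did not pass.

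Turnover genes and nuclear cofactors went both ways. Itch, a ubiquitin ligase gene that acts on NOTCH, fell by 0.91 and Nedd4 by 0.32 on the log2 scale, Arrb1 (0.22) and Aak1 (0.22) rose, and Fbxw7, Rab11a and Cbl were at 0.05, 0.03 and 0.05 without passing. Of 12 co-repressor genes 4 rose and 4 fell, and the Groucho-family genes Tle3 and Tle1 moved in opposite directions, at 0.93 and -0.93. Ctbp2 (-0.50) fell, and Hdac1 (0.00), Ctbp1 (0.04), Kdm5a (0.07) and Tle4 (0.01) did not pass. Of 5 co-activator genes, Kat2b (-0.51), Snw1 (-0.32) and Ep300 (-0.17) fell, and Crebbp (0.13) and Kat2a (-0.04) did not pass. Ep300 lies on chromosome 15, whose tested genes had a median log2 fold change of -0.33, so its fall was smaller than that median.

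**Figure D5:**
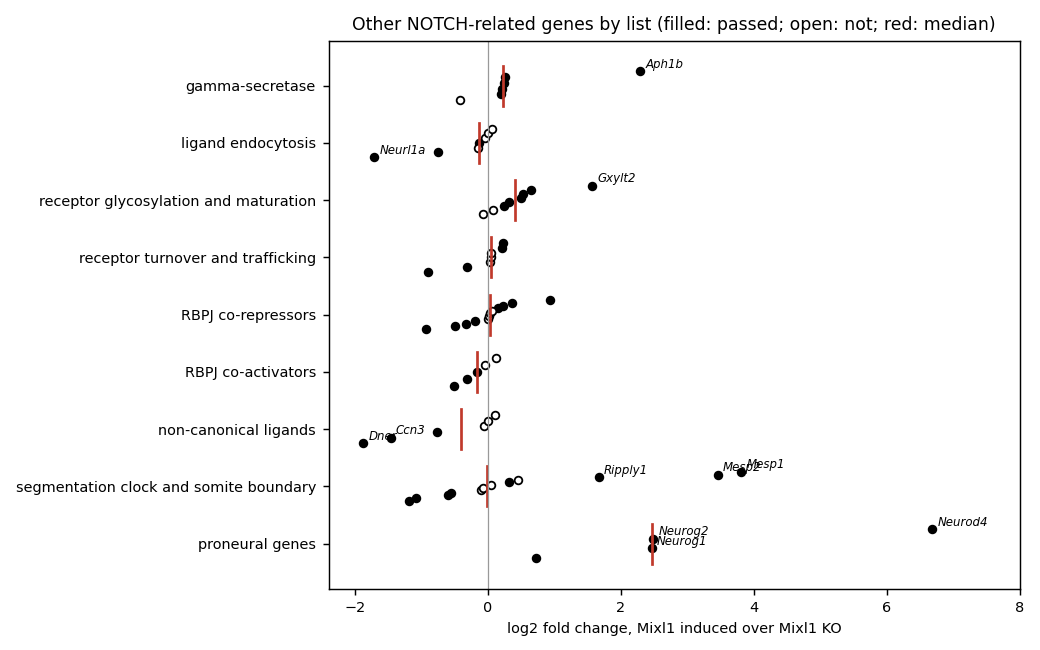
Log2 fold change (Mixl1 induced over Mixl1 KO, x axis) of the tested genes in 9 lists around the NOTCH pathway. Filled points passed an adjusted p of 0.05, open points did not, and red lines are list medians, such as 0.41 for receptor glycosylation and 2.47 for the 4 tested proneural genes.

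Genes of the segmentation clock and somite boundary, where NOTCH acts in the embryo, were mixed. Of 12 tested, 4 rose and 4 fell, with a median log2 fold change of -0.01. Mesp2, a NOTCH-dependent gene of the forming somite boundary, averaged 3.89 ± 1.08 CPM in induced and 0.346 ± 0.073 CPM in KO libraries, and its neighbour Mesp1 32.0 ± 5.41 and 2.27 ± 0.266 CPM in induced and KO libraries (SD, n = 3 each). Both rose, at 3.45 and 3.81 on the log2 scale, while the WNT-responsive genes Sp5 (-1.09) and Nkd1 (-0.55) fell (edgeR, adjusted p = 1.21e-08 or less for each of the 4). Mesp2 passed the filter on low counts only through the induced libraries, so its rise was a condition of its being tested. Msgn1 (0.45), Axin2 (-0.07), Spry2 (-0.10) and Epha4 (0.05) did not pass. Paraxial mesoderm markers were mixed, 2 of 7 tested being higher and 3 lower, with a sum of 29.8 to 39.4 CPM in induced and 38.8 to 43.6 CPM in KO libraries that overlapped. The higher ones were Foxc2 (3.90) and Uncx (3.55), which passed the filter on low counts only through the induced libraries, and the lower ones Meox1 (-3.36), Tcf15 (-1.23) and Tbx6 (-0.60).

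Proneural genes, which HES proteins repress, had few reads, and 4 of 9 were tested. All 4 rose, but Neurod4, Neurog1 and Neurog2 passed the filter on low counts only through the induced libraries, so their rise was a condition of their being tested. Neurod4 averaged 7.84 ± 2.18 CPM in induced and 0.068 ± 0.025 CPM in KO libraries, Neurog2 1.99 ± 0.465 and 0.349 ± 0.155 CPM in induced and KO libraries, and Neurog1 1.08 ± 0.066 and 0.192 ± 0.063 CPM in induced and KO libraries (SD, n = 3 each). Neurog3, Atoh1, Neurod1, Olig2 and Dlx1 had too few reads to be tested. Of 8 neural progenitor markers, 2 were higher and 3 lower, with none at 0. Their sum was 301 to 318 CPM in induced and 420 to 460 CPM in KO libraries. Nes carried that difference, with 168 ± 13.1 CPM in induced and 318 ± 11.2 CPM in KO libraries (SD, n = 3 each). The higher markers were Irx3 (3.43) and Sox1 (1.96), and the lower ones Sox3 (-3.28), Hoxb1 (-1.32) and Nes (-0.92). The part of these markers in the levels of Hes5 and the proneural genes was not tested.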

How the data were processed

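A stranded kit with poly(A) selection was used, per the labels' protocols. The tools named in the submitters' processing notes are STAR, bcl2fastq and DESeq2, with mm10 (GRCm38) as the genome; for versions and annotation the sources used here give nothing. The authors deposited raw read counts per gene for each library, with multimapped reads left out. The antisense column was used, as it held 96.2% to 96.3% of stranded gene reads; rows naming no gene (15.1% to 17.6% of reads) were left out. GENCODE M21 matched 55230 of the identifiers, without version number, for names, positions and the union of exons behind levels per kb. The authors' comparison table was not used.

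Counts were tested with edgeR 4.0.16 (R 4.3.3): filterByExpr, TMM scaling, robust quasi-likelihood fit with group as the term, two-sided, Benjamini-Hochberg adjustment over all 15091 genes, threshold 0.05. CPM use TMM-scaled sizes of the tested genes. The SE is the log2 fold change over the square root of F; its median over genes was 0.08. The fit was tested on simulated data. Intervals cover counting error only. The members and lists were chosen with earlier results of these data known. Per-library values are given for receptors, ligands and members called at 1.5-fold or more; from each list, up to 4 called genes with the smallest p and those not passing are named. Neighbouring genes, Hes1, Nrarp and marker genes were named beside this rule, and some genes that meet it are left out. Alternatives were DESeq2 1.42.0, limma-voom (limma 3.58.1), other scalings, filters, thresholds and counts, a replicate block, each library left out in turn and, added after seeing the data, chromosome medians.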

Additional observations from a re-analysis of the deposited data

How the results depend on the processing

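Of the 35 members, each fitted under up to 17 alternatives, 556 results kept direction and side of the threshold, 23 lost the call, 3 gained it and 12 changed sign; all sign changes were in Hes1, Dtx2 and Numbl, which never passed. The test against a 2-fold change called 1628 genes, beside 9450, and 6 members higher and 3 lower, beside 14 and 11; it accounts for 16 of the 23 lost calls by its construction, and the others were Dll4. Leaving out 1 library gave 8863 to 9225 genes called, 14 to 16 members higher and 10 to 11 lower. Hes5 had a log2 fold change of 3.38 with no filter; where leaving out a library brought it into the test, it came in only through the induced libraries, so its rise there was a condition of being tested. Notch2 passed without induced replicate 3 (adjusted p = 0.0426).

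Sign changes were -0.0056 for Numbl with upper-quartile factors, -0.0006 with no filter, -0.0048 with at least 1 CPM in 3 libraries and -0.0312 relative to the chromosome median, where Dtx2 was at -0.0349 and Hes1 at -0.0127. Leaving out libraries gave -0.0866 to 0.0474 for Numbl, -0.0241 to 0.0613 for Dtx2 and -0.0217 to 0.12 for Hes1. The cause was not tested. With the replicate block, 14 members rose and 11 fell and 9647 genes were called. Same-numbered libraries had correlations of -0.003, 0.046 and 0.040 between their deviations, and differently numbered ones -0.103 to 0.064. These values show no pairing by replicate number, and whether the samples were handled in pairs is not known. Depth limits Hes2, Hes5, Dll4, Hey2 and Dtx1, with under 40 reads in every library.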
